A study of Mus musculus with 18 samples.

Results

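Hearts of mice kept for 2 weeks under hypoxia were compared with hearts of mice kept for 1 week, on 8 of the 18 arrays of the series. The arrays were chosen by their titles. There were 2 arrays in each of 4 groups: chronic constant hypoxia (CCH) for 1 week, CCH for 2 weeks, chronic intermittent hypoxia (CIH) for 1 week and CIH for 2 weeks. The comparison of the 4 arrays of 2 weeks with the 4 of 1 week took the kind of hypoxia as strata. The 2 control arrays of 1 week and the 2 of 2 weeks are shown beside them. The labels give no strain, age, oxygen level or cycle of the intermittent exposure. On each array the cDNA of a male heart carried Cy5 and that of a female heart Cy3, and the hearts of a pair shared condition and duration. Each value is therefore a log2 ratio of male to female signal, and a log2 change of 1 is a 2-fold change of that ratio. A change of the ratio cannot show whether the male hearts, the female hearts or both moved. The direction of the ratio is not stated in the labels and was taken from the Y-linked gene Eif2s3y, which was positive on all 8 arrays (1.13 to 2.28) and on the 4 controls (1.04 to 2.00). X-linked genes that escape inactivation are commonly higher in females, and the 5 tested did not all run that way. Kdm6a lay between -0.64 and -0.41 on the 8 arrays, but the median of the 5 was -0.41, -0.11, 0.06 and -0.36 at 1 week and 0.32, 0.25, 0.39 and 0.79 at 2 weeks. In each such set of 4 values the 2 CCH arrays come first. The direction therefore rests on Eif2s3y and was not settled by the X-linked genes.

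A heart that meets low oxygen shifts its fuel use and its handling of mitochondria, and the hypoxia-inducible factors switch on genes of glycolysis, oxygen delivery and pyruvate control. Mitochondria of heart muscle burn mainly fatty acids, through beta oxidation, the citric acid cycle and the respiratory chain, whose first enzyme is complex I. Long hypoxia also raises the output of red blood cells, whose precursors carry globin, haem and membrane transcripts.

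The promoters of 5 genes described in the results below are shown first, as the 250 bases before the annotated start (RefSeq, build GRCm38.p6). Blvrb, Hba-x and Alas2 stand for the erythroid genes, with matches to the binding motif of GATA factors in capitals (GATA with A or T before it and A or G after it, on either strand). Pdk4 and Pdha1 stand for the genes that govern the entry of pyruvate into mitochondria, with matches to the core of the hypoxia response element in capitals (ACGTG or GCGTG, on either strand).
Blvrb, chr7:27452168-27452417, plus strand: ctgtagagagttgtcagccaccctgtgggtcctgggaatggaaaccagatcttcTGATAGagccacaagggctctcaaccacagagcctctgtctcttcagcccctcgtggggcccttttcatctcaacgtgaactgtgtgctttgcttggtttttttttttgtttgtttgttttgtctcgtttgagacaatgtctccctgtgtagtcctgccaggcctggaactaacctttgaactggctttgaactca
Hba-x, chr11:32276350-32276599, plus strand: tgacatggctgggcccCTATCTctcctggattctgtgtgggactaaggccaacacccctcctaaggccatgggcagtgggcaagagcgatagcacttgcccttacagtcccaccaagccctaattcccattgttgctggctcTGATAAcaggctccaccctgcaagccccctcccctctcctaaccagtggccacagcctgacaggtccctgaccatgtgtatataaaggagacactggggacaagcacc
Alas2, chrX:150547167-150547416, plus strand: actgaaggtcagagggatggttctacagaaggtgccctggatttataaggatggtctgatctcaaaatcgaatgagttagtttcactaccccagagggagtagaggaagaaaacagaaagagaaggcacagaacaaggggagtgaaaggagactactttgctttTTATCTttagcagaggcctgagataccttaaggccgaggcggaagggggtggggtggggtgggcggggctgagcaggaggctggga
Pdk4, chr6:5496279-5496528, minus strand: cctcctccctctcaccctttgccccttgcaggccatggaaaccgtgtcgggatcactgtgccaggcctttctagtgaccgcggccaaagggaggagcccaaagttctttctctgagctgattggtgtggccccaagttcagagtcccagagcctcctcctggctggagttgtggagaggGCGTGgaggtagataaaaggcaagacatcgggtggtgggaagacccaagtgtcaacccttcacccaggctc
Pdha1, chrX:160138431-160138680, minus strand: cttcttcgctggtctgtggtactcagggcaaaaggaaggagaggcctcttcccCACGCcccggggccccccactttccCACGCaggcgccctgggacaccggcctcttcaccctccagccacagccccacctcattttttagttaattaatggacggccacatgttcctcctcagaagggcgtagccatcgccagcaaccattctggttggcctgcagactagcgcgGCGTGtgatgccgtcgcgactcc
Blvrb has 2 annotated windows, and the window with a match is shown. Of the 17 erythroid genes tested, 11 had a window, and 7 of their 12 windows held a GATA motif. The share was 16.84% over the 8171 windows of the genes tested and 26.54% over all 32851 windows. The hypoxia response core was found in 57.18% of the 418 windows of genes higher at 2 weeks, in 55.87% of the 315 windows of genes lower at 2 weeks and in 56.05% of the windows of genes tested. A half-site of the oestrogen-related receptors (AAGGTCA, either strand) was found in 4.78%, 1.59% and 2.81% of the same sets. The tested genes of complexes I to V, the citric acid cycle and fatty acid oxidation had 114 windows. Of these 53.51% held the hypoxia response core and 3.51% the half-site. Matches of different motifs were counted separately and may overlap. A match is a run of letters and not a shown binding site.

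The titles and sources disagreed on 1 of the 8 arrays. The title of CIH 1 week replicate 1 gives 1 week of CIH, while both of its sources name 2 weeks of CCH. It was grouped by title, and the results are also given without it and with it placed in CCH 2 weeks. Among the controls, replicate 1 of 2 weeks carries the code 1A. The 8 arrays had values for 15889 to 24512 of 28704 spots, and every array of 1 week had more (20489 to 24512) than any of 2 weeks (15889 to 19720). An exact two-sided permutation test within the kinds of hypoxia gave p = 0.0556, the smallest its 36 relabellings allow. The SD of the ratios was 0.353 to 0.489 on arrays of 1 week and 0.394 to 0.608 on arrays of 2 weeks (exact permutation p = 0.222). Ratios carry no level, so the labelled tissue could not be checked against heart markers. The labels do not say that the arrays of a group held separate animals, so the p-values measure only the spread between arrays. For the limma tests and their SEs this spread was pooled over all groups of the series, including groups outside the comparison.

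At 2 weeks, 423 of 7881 genes had a higher male-to-female ratio than at 1 week and 339 had a lower one (limma adjusted p under 0.05). These are 5.37% and 4.3% of the genes tested, 9.67% in all. Genes of the citric acid cycle, of fatty acid oxidation, of complex I, of the proteasome and of protein folding were among the higher genes. Genes of the erythroid list were among the lower ones. The median size of the change among the 762 called genes was 0.79, between 0.44 and 1.87, while the median change of all genes was 0.05. Without CIH 1 week replicate 1, 202 genes were higher (2.59% of 7810) and 253 lower (3.24%), 455 in all (5.83%), of which 386 were among the 762. With that array in CCH 2 weeks, 53 were higher (0.667% of 7942) and 86 lower (1.08%), 139 in all (1.75%), of which 111 were among the 762.

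The count of called genes rested on single arrays. It was 0 without CCH 1 week replicate 1 (1654 genes at an unadjusted p under 0.05), 2 without CCH 2 weeks replicate 1, 2 without CIH 1 week replicate 2 and 5 without CIH 2 weeks replicate 2. It was 306 without CCH 2 weeks replicate 2, 442 without CIH 2 weeks replicate 1 and 694 without CCH 1 week replicate 2. The sign of the change was the same in each of the 8 leave-one-out fits for all 762 genes, and the median size of their changes stayed between 0.72 and 0.87. The choice of these genes by their change on the same 8 arrays favours both. Scaling the arrays to a common spread left 117 higher and 51 lower, and quantile normalization 280 higher and 125 lower.

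The 10 genes with the largest rises and a value on all 8 arrays came from several parts of the cell. Sec11a, a catalytic subunit of the signal peptidase complex, had the smallest adjusted p. Its ratios after CCH were -0.93 and -0.61 at 1 week and 0.54 and 0.19 at 2 weeks. After CIH they were -1.52 and -1.37 at 1 week and 0.35 and 0.73 at 2 weeks. All 4 arrays of 2 weeks were above 0 and all 4 of 1 week below it. The change was 1.56 ± 0.18 (SE, n = 4 against 4 arrays; limma adjusted p = 0.00759), a 2.95-fold higher ratio. Sec11a passed the test in 7 of the 8 leave-one-out fits, and its adjusted p was 0.0781 without CCH 1 week replicate 1. With CIH 1 week replicate 1 moved to CCH 2 weeks its change was 1.21 (adjusted p = 0.0733). Its control arrays read -0.83 and -0.11 at 1 week and 0.09 and 0.14 at 2 weeks, a change of 0.59 in the same direction.

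Hsdl2, a member of a dehydrogenase family linked to lipid metabolism, had the largest rise, 1.62 ± 0.44 (SE; limma adjusted p = 0.0399). Its ratios were -1.44, -0.12, -0.07 and -1.19 at 1 week and 0.32, 0.66, 1.82 and 0.88 at 2 weeks. Prdx3, the mitochondrial peroxiredoxin that removes hydrogen peroxide, read -0.87, -0.43, -0.80 and -0.65 at 1 week and 0.27, 0.24, 0.93 and 0.57 at 2 weeks. Neither gene had overlapping durations. The change of Prdx3 was 1.19 ± 0.22 (limma adjusted p = 0.0197), and its 3 spots changed by 1.77, 0.83 and 0.97. The other genes among the 10 were Ndufs1, Ptgds (1.40), Smim7 (1.34), Gpatch11 (1.29), Psmc6 (1.25), Zfp873 (1.22) and Med20 (1.19). Ptgds encodes a prostaglandin D synthase and Med20 a subunit of the Mediator complex. Ptgds was the only member of the 10 whose durations overlapped. Over the 6838 genes with a value on all 8 arrays, all 4 of 2 weeks lay above all 4 of 1 week in 1005 (14.7%) and below them in 622 (9.1%). Among the 686 called genes with 8 values, 540 had no overlap, which the choice of genes by the same contrast favours.

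The 10 largest falls had another shape. Pam, which encodes an enzyme that amidates peptide hormones, read 0.78 and 1.13 after 1 week of CCH and -2.18 and 0.12 after 2 weeks. After CIH it read -0.95 and 0.05 at 1 week and -1.69 and -2.71 at 2 weeks. The durations overlapped, since CCH 2 weeks replicate 2 was near the arrays of 1 week and CIH 1 week replicate 1 was low. The change was -1.87 ± 0.44 (SE; limma adjusted p = 0.0288), and -2.12 without CIH 1 week replicate 1 (adjusted p = 0.037). The controls of 2 weeks were also apart from each other, at -1.25 and 0.16, against 0.79 and -0.14 at 1 week. T2 (-1.83), Hbb-bh1 (-1.55), Dio3os (-1.54), Wfdc1 (-1.52), Hip1r (-1.51), Slc4a1 (-1.51) and Tle5 (-1.50) also had CCH 2 weeks replicate 2 far above the other 3 arrays of 2 weeks. In each of these 7 genes that array lay within the range of the arrays of 1 week. Phtf1 fell by 1.58 ± 0.24 (limma adjusted p = 0.0149), with -0.80 and -0.09 after 2 weeks of CCH and -2.26 and -2.90 after 2 weeks of CIH. Gopc, a Golgi-associated scaffold protein, had a change of -1.52 that became -0.95 (adjusted p = 0.063) without CIH 1 week replicate 1, which stood at 2.06.

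**Figure D1:**
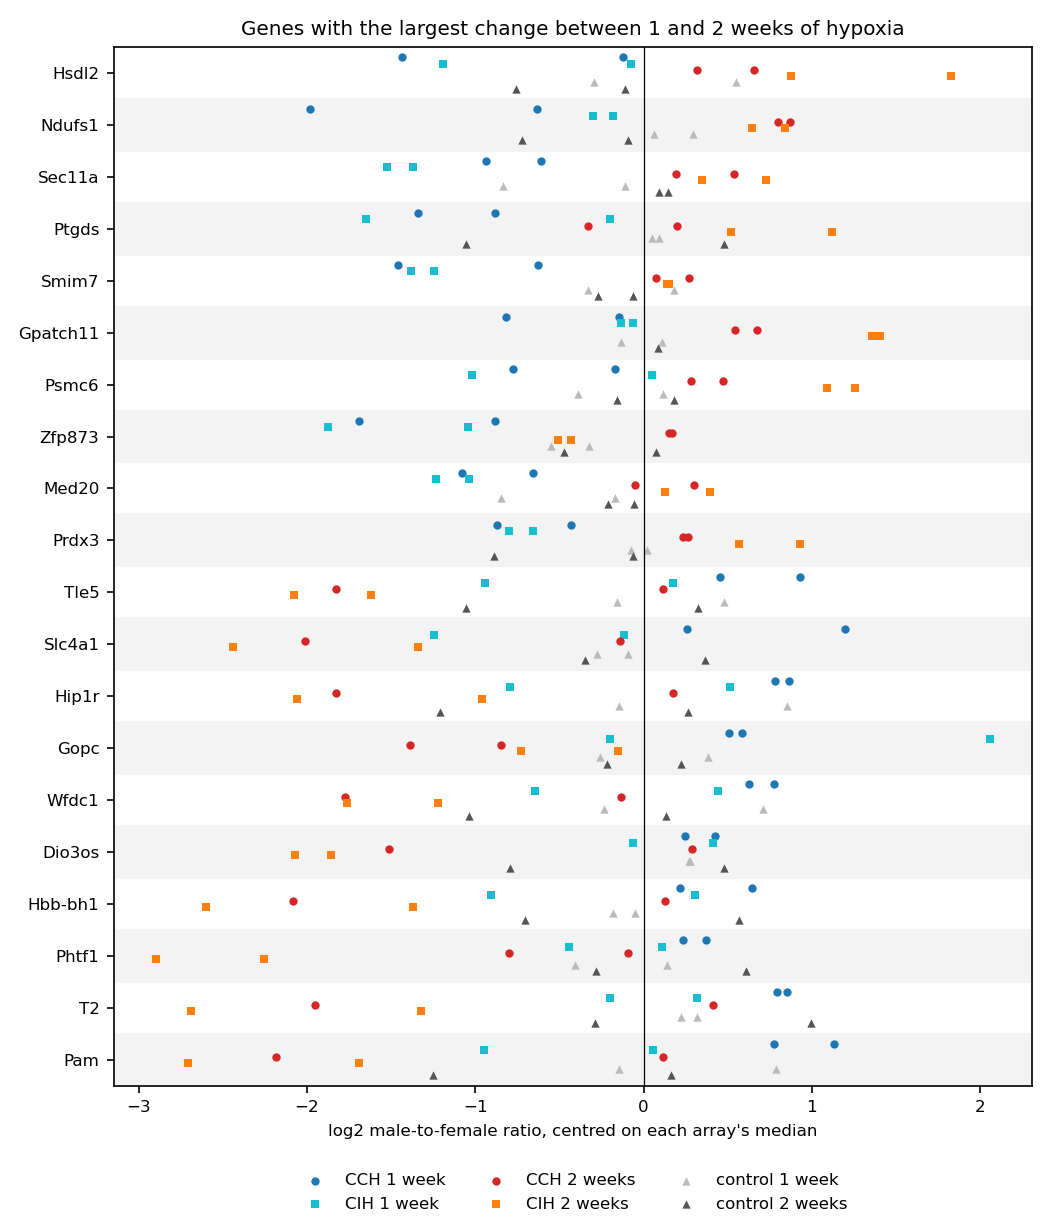
Log2 male-to-female ratios of the 10 genes with the largest rises and the 10 with the largest falls among called genes measured on all 8 hypoxia arrays, with 1 point per array and the controls as triangles. For the rises the arrays of 2 weeks sit to the right of those of 1 week except in Ptgds, while in 8 of the falls 1 CCH array of 2 weeks sits apart from the other 3.

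Complex I, which passes electrons from NADH into the respiratory chain, had 31 subunits tested. Of these 6 rose (Ndufs1, Ndufa9, Ndufb5, Ndufb4, Ndufs8 and Ndufb6), none fell and 29 had a positive change. Ndufs1, the largest subunit of its catalytic core, read -1.98 and -0.63 after 1 week of CCH, -0.30 and -0.18 after 1 week of CIH, 0.87 and 0.80 after 2 weeks of CCH and 0.84 and 0.64 after 2 weeks of CIH. The arrays of the durations did not overlap. Its change was 1.56 ± 0.30 (SE; limma adjusted p = 0.0197), and it was 1.23 (adjusted p = 0.096) at its smallest, in the leave-one-out fits. Ndufb5 was uniform across arrays, with -0.63, -0.44, -0.57 and -0.55 at 1 week and 0.12, 0.16, 0.15 and 0.14 at 2 weeks, a change of 0.69 (adjusted p = 0.0304). Its 3 spots differed, with changes of 1.19, 0.39 and 0.49. The median change of the 31 was 0.39, against 0.05 for all genes, and their median ratio ran from -0.41 to -0.21 on the arrays of 1 week and from 0.04 to 0.11 on those of 2 weeks. In controls the median change was -0.39, and control 2 weeks replicate 2 stood apart with a median of -0.61 against -0.02 on the other array of 2 weeks. Complexes II to V had 35 tested genes, of which Sdhd, an anchor subunit of succinate dehydrogenase, was the only called gene (0.96, adjusted p = 0.029), with a median of 0.26.

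The citric acid cycle and the entry of pyruvate into it had 23 tested genes, and 7 of them rose and 0 fell. Dld, a subunit shared by the pyruvate and oxoglutarate dehydrogenase complexes, changed by 1.06. Pdha1, the X-linked subunit of pyruvate dehydrogenase that kinases switch off, changed by 1.05 ± 0.29 (SE; limma adjusted p = 0.0396). The ratios of Pdha1 were -0.95, -0.10, 0.26 and 0.02 at 1 week and 0.69, 0.62, 0.97 and 1.13 at 2 weeks, with no overlap, and its 5 spots changed by 0.86 to 1.14. Pdk4, a kinase that inhibits that enzyme and a known target of fatty acid signals in heart, also rose, by 0.84 ± 0.20 (limma adjusted p = 0.029). It read -0.13, -0.36, 0.18 and -0.04 at 1 week and -0.05, 0.64, 1.12 and 1.31 at 2 weeks, so that 1 CCH array of 2 weeks lay among those of 1 week. Sdhd, Idh3b (0.92), Sucla2 (0.90) and Idh3g (0.68) were the other members called. The list median changed by -0.45 in controls, whose arrays had medians of 0.29 and 0.06 at 1 week and -0.08 and -0.80 at 2 weeks. In hypoxia it changed by 0.52. Without CIH 1 week replicate 1 the median was 0.58 and 3 genes were called, and with that array regrouped it was 0.56 with 0 called.

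Fatty acid oxidation had 25 tested genes. Lpl (0.85), which frees fatty acids from lipoproteins, Pdk4, Eci2 (0.82), Hadha (0.79), Acaa2 (0.78) and Acadvl (0.78) rose. Hadha, Acadvl and Acaa2 are enzymes of mitochondrial beta oxidation of long or medium chains. Acads, the dehydrogenase for short chains, fell by 0.73 (limma adjusted p = 0.0481). Hadha read -1.47, -0.50, -0.01 and -0.31 at 1 week and 0.08, 0.34, 0.19 and 0.27 at 2 weeks, with CCH 1 week replicate 1 the lowest of the 8. The median of the 25 was 0.46. Glycolysis and glucose uptake had 18 tested genes and a median of 0.26, and no member passed the limma test at an adjusted p under 0.05 (4 at an unadjusted p under 0.05). Over all genes 2714 of 7881 had an unadjusted limma p under 0.05. The glycolytic kinase Pgk1 had a change of 0.82 (adjusted p = 0.0584), and the glucose transporter Slc2a1 one of -0.23 (adjusted p = 0.34).

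Genes of oxygen sensing were not among the called genes. A change shared by both hearts of a pair cancels in the ratio, so these values cannot show a response common to both sexes. Hif1a, the oxygen-regulated subunit of the main hypoxia-inducible factor, read -0.63, -0.08, 0.43 and -0.34 at 1 week and 0.56, 0.53, 0.34 and 0.88 at 2 weeks, a change of 0.73 ± 0.23 (SE; limma adjusted p = 0.0515). CIH 1 week replicate 1 was the only array of 1 week above 0, and without it the change was 0.93 (adjusted p = 0.0424). The values of its partner Arnt (0.08), of the prolyl hydroxylases Egln1 (0.27) and Egln3 (-0.38), of Vhl (-0.44), of Pdk1 (0.75), and of the mitophagy receptors Bnip3 (0.33) and Bnip3l (-0.77) had adjusted p-values of 0.0662 to 0.766. Bnip3l read 0.14, 0.19, -0.30 and -0.01 at 1 week and -1.08, 0.27, -0.69 and -1.56 at 2 weeks, where CCH 2 weeks replicate 2 was the highest of the 8 arrays, and the differences of its 4 spots were -0.67 to -0.89. The list of 23 oxygen-sensing genes and targets had a median of 0.18, with 0 called by limma and 6 at an unadjusted p under 0.05. That compares with 2714 of all 7881 genes at the same unadjusted threshold. Without CCH 1 week replicate 2, 2 of them were called higher and 1 lower. Of 40 genes of hypoxia, heart strain, blood and sex looked up by name, 28 could be tested, and Vegfa, Aldoa, Gapdh, Nppa, Myh6, Myh7, Acta1, Ankrd1, Ryr2, Hba-a1, Hbb-b1 and Xist were not analysed here. The stretch hormone gene Nppb had a change of 0.30 ± 0.49 and the calcium pump gene Atp2a2 one of 0.04 ± 0.22 (SE).

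Genes of protein turnover and folding formed another group of rises. The proteasome, the protease that degrades ubiquitin-tagged proteins, had 45 tested genes, and 7 rose. They were Psmc6, Psme4 (0.84), Psmc4 (0.76), Psmb7 (0.74), Psma5 (0.70), Psmb2 (0.57) and Psma4 (0.52). The 2 that fell were Psmf1 (-0.62), an inhibitor of the proteasome, and Psmg1 (-0.65), a chaperone of its assembly. Psma4 read -0.36, -0.19, -0.15 and -0.19 at 1 week and 0.25, 0.15, 0.39 and 0.41 at 2 weeks, but its 2 spots changed by 0.92 and 0.12. The list median was 0.34 in hypoxia and 0.09 in controls.

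Of 67 chaperone and heat shock genes 11 rose and 2 fell, with a list median of 0.24. Hspa5 (0.65), the chaperone BiP of the endoplasmic reticulum, the disulphide isomerase Pdia6 (0.95) and the co-chaperone Dnajb9 (0.63) were among those that rose. Pdia6 read -0.89, -0.51, -0.49 and -0.66 at 1 week and 0.24, -0.01, 0.55 and 0.45 at 2 weeks. Dnajb4 (1.09), Hspa4l (0.88), Dnajc8 (0.86), Dnaja2 (0.85), Dnajc15 (0.75), Cct2 (0.74) and Dnajb2 (0.63) rose as well, and Hspd1-ps3 (0.72) is a pseudogene whose spot may share signal with its parent gene. Hspb6, a small heat shock protein of muscle, fell by 0.66, and Dnajc10, a reductase of the endoplasmic reticulum, fell by 0.55. Other members of that compartment did not pass the test, among them Hsp90b1 (0.27), Calr (0.37), Canx (0.34), Dnajc3 (0.55), Dnajb11 (-0.07), Pdia4 (0.05) and P4hb (-0.43). The spots of Dnajc10 disagreed, at 0.07 and -1.18, and those of Dnajb2 changed by 0.09, 0.99 and 0.82. Among 31 antioxidant genes Prdx3, Txn1 (0.82) and Nfe2l2 (0.60), the regulator of the antioxidant response, rose and Gsta3 fell by 0.70. These 4 are 12.9% of the list, against 9.67% of all genes. The 4 spots of Nfe2l2 changed by 0.66, 0.93, -0.001 and 0.82.

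Mitochondrial ribosomal proteins had 8 rises and 0 falls among 62, led by Mrpl16 (0.99) and Mrpl9 (0.82), and a list median of 0.19. Among the 8, Mrps36 is also known as a subunit of the oxoglutarate dehydrogenase complex. Cytosolic ribosomal proteins had 1 called gene, Rps12 (0.62), among 60. Of 50 translation factors Eif3h (0.91), Eif2b2 (0.89) and Eif3k (0.79) rose. The share of members called in either direction was 30.4% for the citric acid cycle, 28% for fatty acid oxidation, 20% for the proteasome, 19.4% for complex I, 19.4% for chaperones and 12.9% for mitochondrial ribosomes, against 9.67% of all genes. It was 6% for translation factors, 2.86% for complexes II to V, 1.67% for cytosolic ribosomal proteins and 0% for glycolysis and for the hypoxia-inducible list. The lists were chosen with earlier results known, so these shares are descriptions. With quantile normalization the counts were 6 rises for complex I, 6 for the citric acid cycle, 5 each for fatty acid oxidation and the proteasome, 8 for chaperones and 6 for mitochondrial ribosomes. With arrays scaled to a common spread they were 3, 0, 1, 1, 2 and 3. Without CIH 1 week replicate 1 the rises were 1, 3, 4, 2, 7 and 3, and with that array regrouped 0, 0, 0, 1, 2 and 2, in the same order. Without CCH 2 weeks replicate 2 they were 1, 0, 0, 1, 4 and 3. Without CCH 1 week replicate 1, without CCH 2 weeks replicate 1, without CIH 1 week replicate 2 or without CIH 2 weeks replicate 2, none of these lists had a called gene by limma. Their medians kept their sign in every alternative, with 0.29 to 0.43 for complex I, 0.41 to 0.62 for the citric acid cycle, 0.36 to 0.67 for fatty acid oxidation, 0.23 to 0.36 for the proteasome and 0.21 to 0.32 for chaperones.

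**Figure D2:**
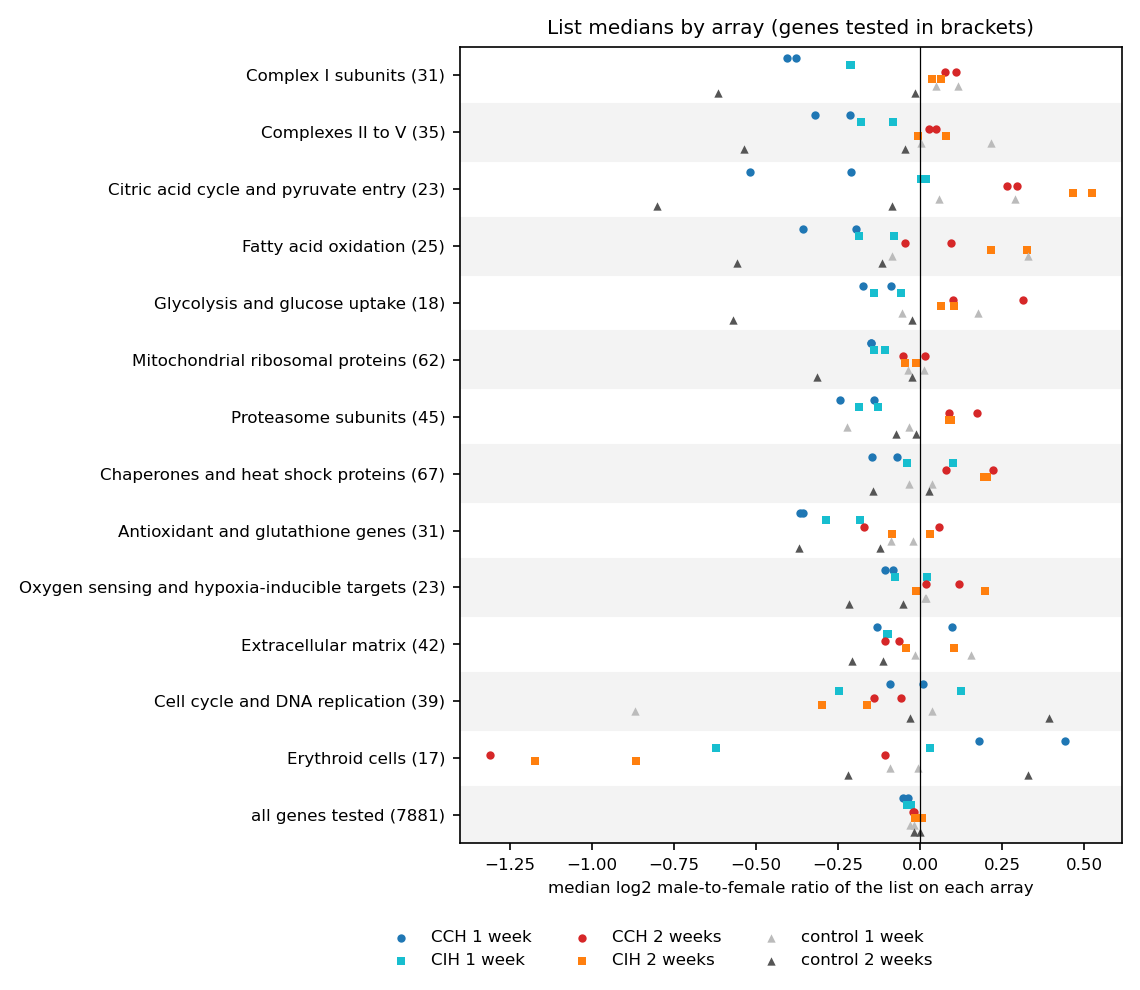
Median log2 male-to-female ratio of the tested genes of 13 lists and of all genes, with 1 point per array. For complex I the arrays of 1 week lie between -0.41 and -0.21 and those of 2 weeks between 0.04 and 0.11, while control 2 weeks replicate 2 (-0.61) lies below both.

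The erythroid list had 17 tested genes, and 15 of them had a negative change. Slc4a1, the anion exchanger of the red cell membrane, Hbb-bh1, a globin gene of the beta cluster, and Blvrb, a reductase of haem breakdown abundant in red cells, fell, and 0 rose. These 3 of 17 are 17.6% of the list, against 4.3% of all genes called lower and 9.67% called in either direction. Slc4a1 read 1.20, 0.26, -1.25 and -0.11 at 1 week and -2.01, -0.14, -1.34 and -2.44 at 2 weeks. CCH 2 weeks replicate 2 lay with the arrays of 1 week, and CIH 1 week replicate 1 lay near those of 2 weeks. The change was -1.51 ± 0.45 (SE; limma adjusted p = 0.0479), and its 3 spots changed by -1.16, -1.66 and -1.71. Blvrb read 0.76, 0.50, -0.78 and -0.08 at 1 week and -0.67, -0.24, -0.87 and -0.88 at 2 weeks, a change of -0.76 ± 0.19 (limma adjusted p = 0.0304). Alas2, the first enzyme of haem synthesis in red cells, had the largest change of the list, -1.57 ± 0.53, and did not pass the test (adjusted p = 0.0661). Its ratios were 0.02, 0.82, -0.74 and -0.14 at 1 week and -2.04, 0.34, -1.77 and -2.82 at 2 weeks. Hba-x, a globin gene of the alpha cluster, had a difference of -1.31 ± 0.40 (adjusted p = 0.0504). It read 0.47, 0.24, -0.79 and 0.22 at 1 week and -1.72, 0.23, -1.64 and -1.97 at 2 weeks.

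The median ratio of the 17 genes was 0.44, 0.18, -0.62 and 0.03 at 1 week and -1.31, -0.11, -0.87 and -1.18 at 2 weeks. The list median changed by -0.76, and by -0.06 in controls. Without CCH 2 weeks replicate 2 the median was -1.08 and 9 members were called lower, without CIH 1 week replicate 1 it was -0.94 with 3, and with that array regrouped -0.99 with 1. With quantile normalization it was -0.68 with 0 called, and with arrays scaled to a common spread -0.63 with 0 called. No member was called by limma without CCH 1 week replicate 1, CCH 2 weeks replicate 1, CIH 1 week replicate 2 or CIH 2 weeks replicate 2. In whole hearts, fewer cells of a type and less RNA per cell cannot be told apart, and a lower ratio can come from the male or from the female heart of a pair. The adult beta globin gene Hbb-b1 had no value on the 8 arrays.

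**Figure D3:**
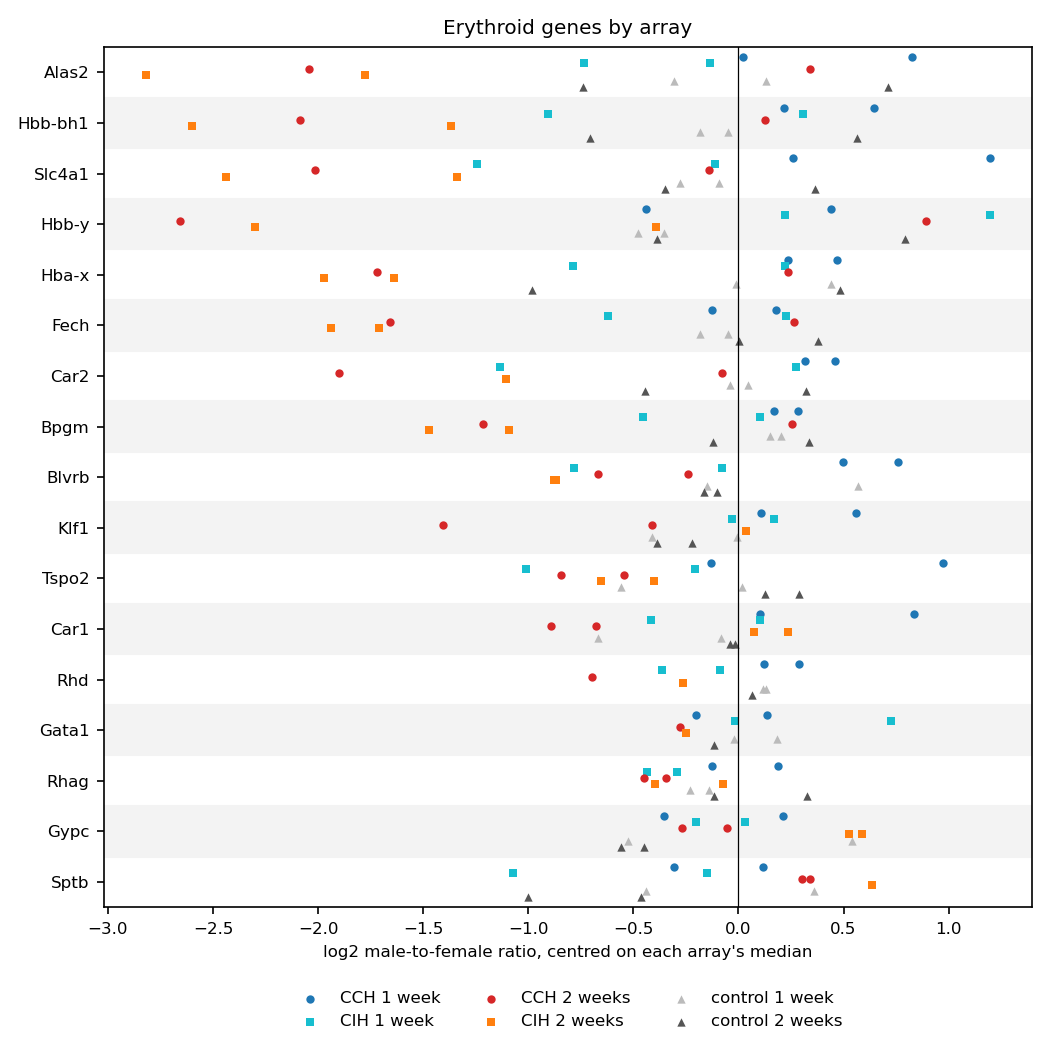
Log2 male-to-female ratios of the 17 erythroid genes tested, ordered by their change, with 1 point per array. In Alas2, Hbb-bh1, Slc4a1 and Hba-x 3 of the 4 arrays of 2 weeks lie below -1.3, and CCH 2 weeks replicate 2 lies between -0.14 and 0.34.

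Among markers of other cell types, the share called was 20% of 5 adipose genes, 10% of 10 fibroblast genes, 9.09% of 11 skeletal muscle genes and 5.56% of 18 leukocyte genes, against 9.67% of all genes. Of 10 fibroblast genes only Dcn, which encodes the matrix proteoglycan decorin, was called. It read -1.31, -0.87, -0.48 and -0.38 at 1 week and 0.26, 0.13, 0.07 and 0.41 at 2 weeks, a change of 0.98 ± 0.15 (SE; limma adjusted p = 0.0149), while the controls went from 0.27 and 0.20 to -0.37 and -0.59. Thbs2, another matrix gene, fell by 1.04 with 7 values. Dcn and Thbs2 were the 2 called of 42 matrix genes (4.76%). Of 18 leukocyte genes Fcgr3 (0.84) rose, of 5 adipose genes Lep (-0.96) fell, and of 11 skeletal muscle genes Mybpc1 (-0.91) fell. The endothelial nitric oxide synthase gene Nos3 fell by 0.51, the only call among 17 genes of angiogenesis and endothelium (5.88%). No marker of lung epithelium (8), atrial (5) or ventricular cardiomyocytes (2), smooth muscle (4), liver (6) or nervous tissue (5) passed the limma test. The liver list had a median of -0.65, and on CCH 1 week replicate 1 Alb read 5.67, Trf 4.33 and Ttr 2.31, while on CCH 1 week replicate 2 they read -2.65, -1.01 and -0.68. Without the former array the liver median was -0.10 with 0 called, and without the latter it was -1.29 with 4 of the 6 called lower. Of sarcomere genes (16), hypertrophy genes (19) and apoptosis genes (20) 0 were called, and of 39 cell cycle genes 1 (2.56%), the ribonucleotide reductase gene Rrm1 (-1.06). At an unadjusted p under 0.05 the lists without a call had 2 (lung), 0 (atrial), 1 (ventricular), 1 (smooth muscle), 1 (liver), 1 (nervous), 7 (sarcomere), 3 (hypertrophy) and 5 (apoptosis) members. The count over all genes was 2714 of 7881. Without CCH 1 week replicate 2, 4 sarcomere genes were called higher. Of 29 genes of calcium cycling and ion channels Atp1b3 (0.62), a subunit of the sodium pump, rose and the potassium channel genes Kcnn1 (-0.90) and Kcnj16 (-0.72) fell. Of 52 splicing factors Hnrnph2 (0.76) rose. The shares called were 10.3% and 1.92%, against 9.67% of all genes. All 5 tested X-linked genes that escape inactivation had a positive change, with a median of 0.47. Of these Eif2s3x rose by 0.80 (limma adjusted p = 0.0456), and Kdm5c (0.87), Usp9x (0.47), Ddx3x (0.31) and Kdm6a (0.08) did not pass the test. The list had no called gene when any hypoxia array other than CCH 1 week replicate 2 or CIH 2 weeks replicate 1 was left out.

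Within CCH alone 5 of 7881 genes passed the test (0.0634%). They were Pgrmc1 (-1.89), Septin5 (-1.60), Lrr1 (-1.31), Dcn (1.29) and Eri3 (1.27). Within CIH alone 2 passed (0.0254%), Sec11a (1.99) and Phtf1 (-2.41). The counts at an unadjusted p under 0.05 were 1957 and 1514. Across the 7881 genes the changes of both kinds had a Pearson r of 0.521 and a Spearman rho of 0.539, and 70.8% had the same sign. The 2 changes share no array but the array design and the male and female pairing are common to all 8 arrays. Genes are not independent replicates, so no p is given. Of the 762 called genes 758 had the same sign in both kinds, which the choice of the genes from the mean of both favours. The r was 0.376 without CIH 2 weeks replicate 2, 0.388 without CIH 1 week replicate 2 and up to 0.593 without the others.

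The test of the difference between the kinds called 1 gene (0.0127%), Pgrmc1, which encodes a haem-binding membrane protein. It read 0.57 and 0.42 after 1 week of CCH and -1.67 and -1.11 after 2 weeks, and -0.40 and -0.27 after 1 week of CIH and 0.18 and 0.11 after 2 weeks. Both CCH arrays of 2 weeks lay below every other array, and the CIH arrays moved the opposite way. The change within CIH minus that within CCH was 2.36 ± 0.32 (SE; limma adjusted p = 0.0183). No gene was called in this test without CCH 1 week replicate 1, either CIH array of 1 week or either CIH array of 2 weeks, and Pgrmc1 was not the gene called without CCH 2 weeks replicate 1.

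**Figure D4:**
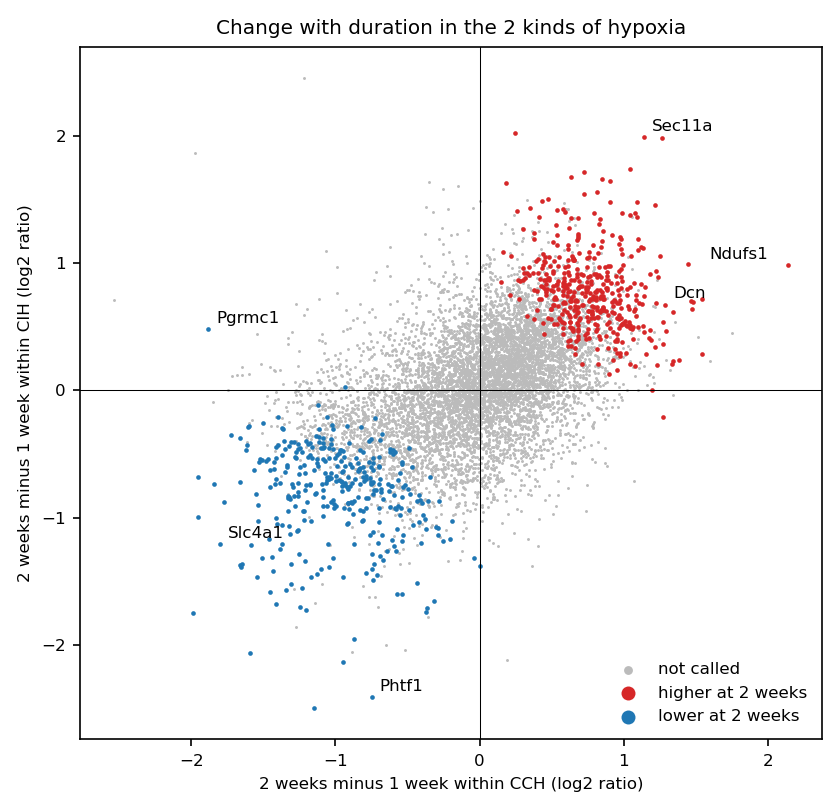
Change of the log2 ratio from 1 to 2 weeks within CCH (x axis) and within CIH (y axis) for 7881 genes, with the 423 higher genes in red and the 339 lower ones in blue. Most coloured points lie at the upper right and the lower left, and Pgrmc1 lies to the upper left.

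In controls the same contrast called 0 of 7681 genes (0%) by limma, with 442 at an unadjusted p under 0.05. Without control 1 week replicate 2, 68 genes were called. The change in hypoxia minus that in controls also called 0 genes (0%), with 1526 at an unadjusted p under 0.05, and the smallest adjusted p was that of Dcn (1.69, adjusted p = 0.0834). Of the 745 called genes with control values 415 had a control change of the opposite sign, and 471 differed from controls at an unadjusted p under 0.05. Each control duration rests on 2 arrays, and these differed from each other.

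Each array was also set against the change across genes. For the hypoxia arrays the change of the other kind was used, which holds no values of that array. The 4 arrays of 2 weeks had r of 0.50, 0.31, 0.41 and 0.60. Of those of 1 week, both CCH arrays (-0.40 and -0.25) and CIH 1 week replicate 2 (-0.23) were negative, and CIH 1 week replicate 1, the array with disagreeing labels, was positive (0.24). The controls of 1 week had -0.14 and 0.39 and those of 2 weeks 0.14 and -0.36. Pairs of hypoxia arrays of 1 group correlated at 0.32 to 0.67, while the control pair of 1 week had r of -0.07 and that of 2 weeks 0.07. Across the kinds, hypoxia pairs of 2 weeks correlated at 0.36 to 0.70 and pairs of 1 week at -0.09 to 0.34. Hypoxia pairs of 1 and 2 weeks correlated at -0.44 to 0.45. CIH 1 week replicate 1 had r of 0.45 and 0.34 with CCH 2 weeks and of 0.25 and 0.43 with CIH 2 weeks. The highest r of any other pair of 1 and 2 weeks was 0.08. With arrays of 1 week that array had r of -0.09 and 0.27 (CCH) and 0.32 (CIH). Which of its labels is right was not tested. The dyes are stated as the same for all arrays, so the direction was kept for the negative pairs.

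**Figure D5:**
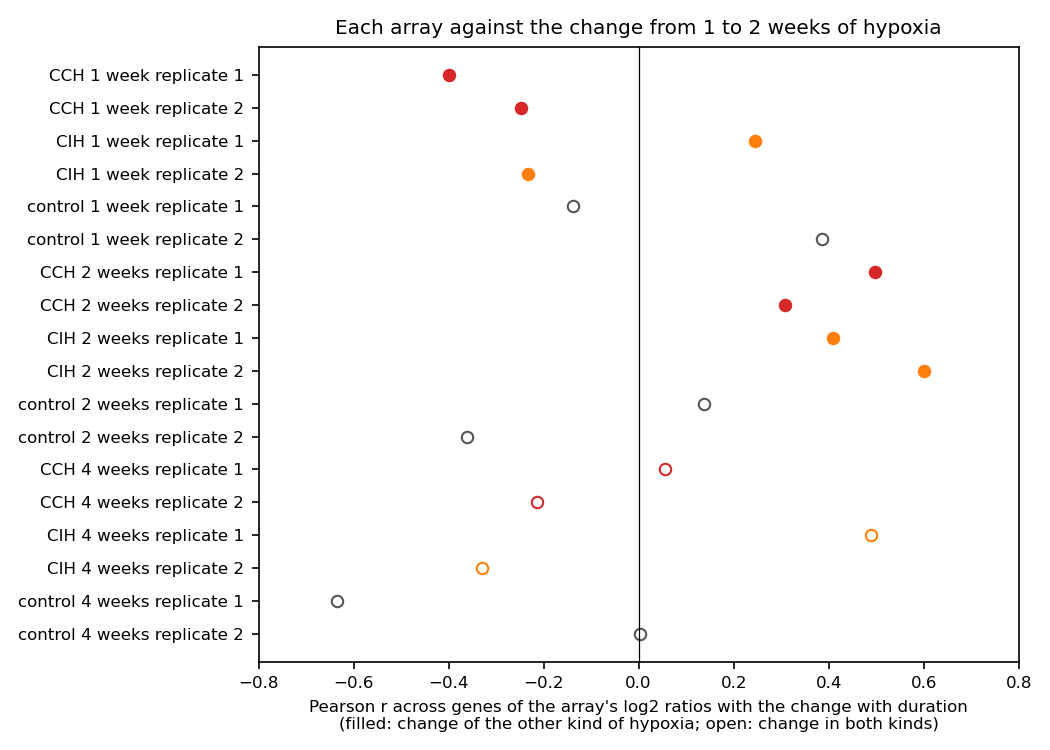
Pearson r across genes between the log2 ratios of each of the 18 arrays and the change from 1 to 2 weeks of hypoxia, taken from the other kind of hypoxia for the 8 arrays compared (filled) and from both kinds for the rest (open). The 4 arrays of 2 weeks lie at 0.31 to 0.60, 3 of the 4 of 1 week lie below 0, and controls and arrays of 4 weeks lie on both sides.

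The number of arrays with a value moved with the direction of the calls. Among 5345 genes measured on all 18 arrays the median change was 0.01, with 4.62% called higher and 5.22% lower. Among 904 genes measured on at most 14 arrays it was 0.21, with 8.63% higher and 1.66% lower. The part of missing values in the result was not tested. Different spots of a gene often disagreed. Over 2122 genes with 2 measured spots the changes of the spots had a Pearson r of 0.205 across genes, and 58.8% had the same sign. Of the 762 called genes 462 rested on 1 spot, as did 3332 of the 7881 genes tested. The other 300 called genes had more than 1 spot, as did 4549 of the genes tested. Among 199 called genes with several complete spots 192 had all spots of the same sign. Choosing genes by the mean of their spots favours this agreement.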

How the data were processed

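The arrays carried the cDNA of 2 hearts each, and the authors deposited log2 ratios of the 2 channels, with gaps. Base 2 was taken from the values, since the linear ratio averages 1 on every array. Background correction, spot filter and normalization are not given in the sources used here. Arrays were centred on their median and spots with 1 gene symbol averaged per gene (18511 of 28704 spots; 937 had several symbols and 9256 none). Gene identifiers of 18267 spots matched RefSeq, and 0 symbols changed. Genes with a value in each of the 4 hypoxia groups were tested with limma 3.58.1 in R 4.3.3 (18 arrays as 9 groups, moderated test, two-sided, prior df 6.06, prior SD 0.257, Benjamini-Hochberg over all genes, threshold 0.05). The number of arrays limits the precision.

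The named genes were the 10 largest changes per direction with 8 values, list members with the smallest p-values or past the threshold, the leading genes of the other comparisons, and fixed genes of hypoxia, heart strain, blood and sex. The members and lists were chosen with earlier results of these data known. Figures were drawn with matplotlib 3.10.9, and the scripts were tested on simulated data. Alternatives covered the arrays in the fit, scaling, gaps, spots, weights, labels and single arrays.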

Additional observations from a re-analysis of the deposited data

Results flagged for a closer look

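In 96 groups of 4 arrays (1 duration of hypoxia, both kinds) of named genes, 1 array was checked for standing apart. Chance flags about 1 in 20 such groups, and 2 were found. For Gpatch11 at 1 week, CCH 1 week replicate 1 (-0.82) lay below the other 3 (-0.14 to -0.06), a gap of 0.894 of the range, above the critical value of Dixon's test for 4 samples. For Hba-x at 2 weeks, CCH 2 weeks replicate 2 (0.23) lay above the other 3 (-1.97 to -1.64), a gap of 0.849 of the range. Pgrmc1 differed between the kinds of hypoxia by 2.36 in its change with duration (limma adjusted p = 0.0183).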

How the results depend on the processing

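The number of genes called between 2 weeks and 1 week of hypoxia (762) was 1861 with only the 8 hypoxia arrays in the fit, 1748 with the 12 arrays of 1 and 2 weeks, 405 after quantile normalization, 168 after scaling all arrays to a common spread, 1310 with unnamed spots tested too, 2249 with array weights and 139 with CIH 1 week replicate 1 grouped by its source. Leaving out 1 hypoxia array gave 0 to 694. Within CCH the 5 calls became 603, 559, 23 (quantile), 8 (genes on all 18 arrays), 2 (1 spot per gene), 10 (unnamed spots), 1571 (weights), 0 (regrouped) and 0 to 38 (leaving out 1 array). Within CIH the 2 calls became 111, 76, 1 (common spread), 9 (genes on all 18 arrays), 24 (1 spot per gene), 158 (weights), 0 (regrouped) and 0 to 3. The difference between the kinds gave 0 with the 8 or the 12 arrays, 0 when regrouped and 0 to 4. Controls gave 1 (quantile), 4 (common spread) and 0 to 68, and hypoxia minus control 1 (quantile), 17 (common spread), 1 (weights) and 0 to 17. The r between the kinds was 0.376 to 0.593 over the leave-one-out fits. The causes were not tested, beyond the arrays or genes that each setting leaves out.

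Whether replicates of different groups were paired was not settled. Deviations of like-numbered replicates correlated between groups at -0.33 to 0.37, with both signs. Replicate 1 of CCH 1 week and of CCH 2 weeks carries no letter. With the replicate block 611 genes were called, 1 within CCH and 2 within CIH.

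For 202 named genes, of which 97 were called, 22 settings were tried. Of 2104 combinations with a called gene 1342 kept the call, 761 lost it and 1 reversed, Dnajc10 with 1 spot per gene (0.0733, limma adjusted p = 0.794). Of 2247 with a gene not called, 162 became called and 27 changed sign. None of the 97 kept its call in every setting. Signal over background is not recorded in the ratios, so faint spots could not be told from bright ones.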
